A study of Mus musculus with 10 samples.

Results

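Cholesterol and fatty acids are made from the same precursor, acetyl-CoA, and 32 genes of these routes were followed here in mouse regulatory T (Treg) cells. They were chosen by name from the deposited count table of 55291 genes, and all 32 were found there and passed the filter on low counts. By role they were 17 enzymes of sterol synthesis, 6 genes that sense or carry sterols, 7 genes of fatty acid synthesis and 2 sterol efflux transporters. RNA sequencing was done on Treg cells of Foxp3YFP-cre mice, in which cells that express Foxp3, the defining transcription factor of the lineage, carry a yellow fluorescent protein fused to Cre recombinase. The LN group was sorted from lymph nodes of untreated, tumour-free mice (4 libraries). The Hepa1-6 group was sorted from tumours 23 days after subcutaneous injection of Hepa1-6, a mouse hepatoma line (4 libraries), and the E.G7 group from tumours 21 days after subcutaneous injection of E.G7, a line derived from the EL4 mouse T lymphoma (2 libraries). All groups carry the Foxp3 allele; no source used here gives the strain background, the age, or whether a library came from 1 animal or a pool, so p-values reflect variation among libraries, which could be technical. Tissue and treatment differ together, since the LN cells came from another organ of other mice, and the tumour type cannot be told apart from the day of collection.

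As background, sterol synthesis runs from acetyl-CoA through mevalonate, farnesyl diphosphate, squalene and lanosterol to cholesterol, and its genes are switched on together by the transcription factor SREBP2 (gene Srebf2). When membrane cholesterol is low, SCAP carries SREBP from the endoplasmic reticulum to the Golgi, where it is cut and released; the INSIG proteins hold it back when sterols are plentiful. Its sister SREBP1 (Srebf1) mainly drives fatty acid genes, and the oxysterol receptors LXR raise Srebf1 and the efflux pumps Abca1 and Abcg1 when cholesterol is in excess. In Treg cells the mevalonate route is known to be needed for suppressive function and for the prenyl groups that anchor small GTPases.

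SREBP binds DNA next to CCAAT boxes, which bind NF-Y, and GC boxes (GGGCGG), which bind Sp1, and the stretches before 6 start sites are printed because they differ in the motifs they hold and in call: 5 of these genes rose or fell in both tumours, and Srebf2, which encodes the regulator, passed in neither. RefSeq start sites (GRCm38.p6, the mm10 genome) were matched for 25 of the 32 members, in 33 windows of 300 bases, 250 before and 50 after the start. A sterol regulatory element, written TCACNCCA and searched on both strands, lay in 3 of the 33 windows (Hmgcs1, Msmo1 and Srebf2), against 4.36% of 32851 windows of all genes. The E-box CACGTG, which SREBP1 also binds, lay in 7 windows of 6 members, Hsd17b7, Sc5d, Dhcr7, Insig1, Scap and Abca1, against 7.15% of all windows. CCAAT on either strand lay in 22 of the 33 windows against 37.4% of all, and GGGCGG in 25 against 35.7%. A match is a description of the letters and no measure of binding. The lines give the strand of the gene, 5′ to 3′, from 200 bases before the start up to the start, or up to the first exon of the count table where that comes earlier, with TCACNCCA, CACGTG and CCAAT or its complement ATTGG in capitals; in Fasn the boxes at -62 and -59 overlap. They lie at chr13:119690151-119690350 (Hmgcs1, + strand), chr15:82147069-82147180 (Srebf2, + strand), chr5:28071212-28071362 (Insig1, + strand), chr1:169969242-169969405 (Hsd17b7, - strand), chr11:120824548-120824747 (Fasn, - strand) and chr8:122443423-122443622 (Mvd, - strand).
Hmgcs1: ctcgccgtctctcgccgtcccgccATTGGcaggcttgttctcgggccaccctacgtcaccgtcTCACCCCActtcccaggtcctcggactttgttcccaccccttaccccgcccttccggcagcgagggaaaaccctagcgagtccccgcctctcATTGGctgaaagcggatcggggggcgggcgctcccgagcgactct
Srebf2: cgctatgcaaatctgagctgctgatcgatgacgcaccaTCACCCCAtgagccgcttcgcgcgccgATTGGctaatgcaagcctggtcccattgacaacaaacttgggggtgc
Insig1: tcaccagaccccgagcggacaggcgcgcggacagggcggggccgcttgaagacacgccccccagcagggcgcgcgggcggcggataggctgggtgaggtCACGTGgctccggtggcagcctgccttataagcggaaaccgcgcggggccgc
Hsd17b7: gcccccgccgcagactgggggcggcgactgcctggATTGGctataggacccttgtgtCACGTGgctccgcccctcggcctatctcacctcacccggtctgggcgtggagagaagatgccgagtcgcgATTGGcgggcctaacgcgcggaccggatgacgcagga
Fasn: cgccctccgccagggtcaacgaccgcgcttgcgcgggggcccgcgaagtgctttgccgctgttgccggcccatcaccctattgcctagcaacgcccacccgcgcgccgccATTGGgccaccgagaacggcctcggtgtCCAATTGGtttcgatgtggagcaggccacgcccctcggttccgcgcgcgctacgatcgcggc
Mvd: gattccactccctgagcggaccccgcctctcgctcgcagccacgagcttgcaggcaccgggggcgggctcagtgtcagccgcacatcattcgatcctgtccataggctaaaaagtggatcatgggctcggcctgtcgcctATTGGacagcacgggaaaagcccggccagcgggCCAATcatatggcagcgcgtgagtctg
The TCACCCCA of Hmgcs1 begins 137 bases before its start between CCAAT boxes at -176 and -45, and that of Srebf2 begins at -162 with a box at -135. Insig1 and Hsd17b7 carry CACGTG at -101 and -143. Fasn and Mvd hold CCAAT boxes and neither TCACNCCA nor CACGTG in this stretch. They differ in GGGCGG, which lay in the window of Mvd and not in that of Fasn. GGGCGG also lay in the windows of Hmgcs1, Insig1 and Hsd17b7, which rose in both tumours, and of Srebf2, which passed in neither. Fasn rose in both tumours while Mvd fell in both, a call lost with pan T cell scaling.

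The LN libraries held 22665563 to 24472849 counts, those of Hepa1-6 26224286 to 26665325, and those of E.G7 26585350 and 26663336. Levels are CPM, read counts scaled to the library total and by TMM, means are given ± SD (n = 4, 4 and 2), and differences are log2 fold changes from edgeR's quasi-likelihood test with Benjamini-Hochberg adjustment over 20068 genes, called at an adjusted p under 0.05. Foxp3 was present in every group, at 109 ± 10.8 (LN), 82.02 ± 11.0002 (Hepa1-6) and 50.2 ± 4.34 CPM (E.G7), and was called lower than LN in both tumours (-0.40, adjusted p = 0.00137 and -1.11, adjusted p = 1.25e-06). Of 7 T cell and Treg markers 5 fell in each tumour, Foxp3, Cd4, Cd3e and Ikzf2 in both, Cd3d in Hepa1-6 and Il2ra in E.G7, with medians of -0.24 and -0.44, and Ctla4 rose in both. Their sums of 3616 to 3716 CPM (LN), 4188 to 4293 CPM (Hepa1-6) and 3599 and 3712 CPM (E.G7) include Ctla4 means of 410.2, 1409.5 and 1261 CPM. The tumour libraries also held RNA of other cells. All 14 macrophage and neutrophil markers were higher in both tumours than in LN, with sums of 25.6 to 37.5 CPM (LN), 4070 to 4382 CPM (Hepa1-6) and 755 and 786 CPM (E.G7); S100a9 was at 0 in LN. Of 12 hepatoma markers, the 8 tested were higher in Hepa1-6, with sums of 6.11 to 7.48 CPM (LN), 1509 to 1627 CPM (Hepa1-6) and 4.35 and 5.12 CPM (E.G7); Serpina1a was at 0 in every library, Fgb and Ttr were at 0 in E.G7, and Krt19, Fga and Hnf4a were at 0 in LN. Of 6 markers of immature thymocytes and T lymphoma, the 3 tested (Cd8b1, Dntt and Trap1a) were higher in E.G7 than in LN. Their list summed to 17.6 to 20.01 CPM (LN), 64.2 to 75.4 CPM (Hepa1-6) and 196 and 205 CPM (E.G7). Cd8b1, which is also on the list of CD8 T and NK cells, held most of the Hepa1-6 sum. It stood at 61.5 to 72.6 CPM in Hepa1-6 and 25.2 and 29.1 CPM in E.G7, and was called higher in Hepa1-6 than in E.G7. Dntt and Trap1a were called lower in Hepa1-6 than in E.G7. Rag1 was at 0 in every library and Rag2 in LN and E.G7. Markers of dendritic cells and MHC class II rose as well (9 of 9 in each tumour), summing to 149 to 171 CPM (LN), 9478 to 9855 CPM (Hepa1-6) and 1697 and 1762 CPM (E.G7). Markers of CD8 T and NK cells (7 of 8 higher in Hepa1-6 and 6 in E.G7, none lower) had mean sums of 32.3, 481 and 126 CPM in LN, Hepa1-6 and E.G7. Those of stroma and endothelium (9 of 10 higher and 1 lower in each) had mean sums of 231, 1179 and 151 CPM, with Col3a1 and Dcn at 0 in LN, those of erythroid cells (4 of 5 higher in each, 1 lower in E.G7) 3.04, 36.5 and 9.04 CPM, and those of B cells (3 of 6 higher and 2 lower in each) 888, 400.2 and 625 CPM. In bulk libraries like these, fewer cells of a type and less RNA per cell cannot be told apart, and the part of other cells in the results that follow was not tested unless a value is given.

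Hepa1-6 against LN asked how Treg cells of the hepatoma differ from those of lymph nodes. Sterol and fatty acid genes were mostly higher in the tumour, by less than 2-fold for most: 20 of the 32 members rose, 6 fell and 6 did not pass, where 37% of all genes tested rose and 31.1% fell (68% in either direction). Of the members called, 4 rose and 1 fell by at least 2-fold, against 23.5% and 14.3% of all genes. The 17 sterol enzymes had a median log2 fold change of 0.42 (9 higher, 4 lower) and the 7 fatty acid genes one of 0.46 (6 higher, 1 lower), beside 0.04 over all genes tested. For 19 members higher and 6 lower in Hepa1-6 the libraries did not overlap those of LN, against 34.1% and 27.6% of all genes. Scaling to 10 pan T cell genes moved the median of all genes to 0.33, with 24 members higher and 2 lower.

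E.G7 against LN asked the same of the lymphoma, with 2 libraries. Here 19 members rose, 4 fell and 9 did not pass, where 32.7% of all genes rose and 27.2% fell (59.9% in either direction). At least 2-fold were 8 higher and 1 lower, against 19.1% and 14.2% of all genes. The median was 0.45 for the sterol enzymes (11 higher, 2 lower) and 0.87 for the fatty acid genes (6 higher, 1 lower), beside 0.01 over all genes. Libraries did not overlap for 21 members higher and 7 lower, against 36.6% and 32.6% of all genes. With pan T cell scaling the median of all genes was 0.32, and 26 members rose and 1 fell. Both comparisons share the LN libraries, so that their values are given side by side and not as independent evidence of each other.

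Hepa1-6 against E.G7 compares the tumours without LN. Of the members 6 were higher in Hepa1-6, 11 were higher in E.G7 and 15 did not pass, where 26.1% and 19.6% of all genes were called in these directions (45.6% in either). At least 2-fold were 2 members higher in Hepa1-6 (Scd1 and Abca1) and 1 in E.G7 (Cyp51), against 14.5% and 6.38% of all genes. The sterol enzymes had a median log2 fold change of -0.23 (1 higher and 6 lower in Hepa1-6) and the fatty acid genes one of 0.08 (2 higher, 3 lower), beside 0.06 over all genes. Libraries did not overlap for 6 members higher and 16 lower in Hepa1-6, against 31.9% and 26.2% of all genes. The fatty acid median depends on 1 library: it was -0.07 without E.G7 replicate 2.

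**Figure D1:**
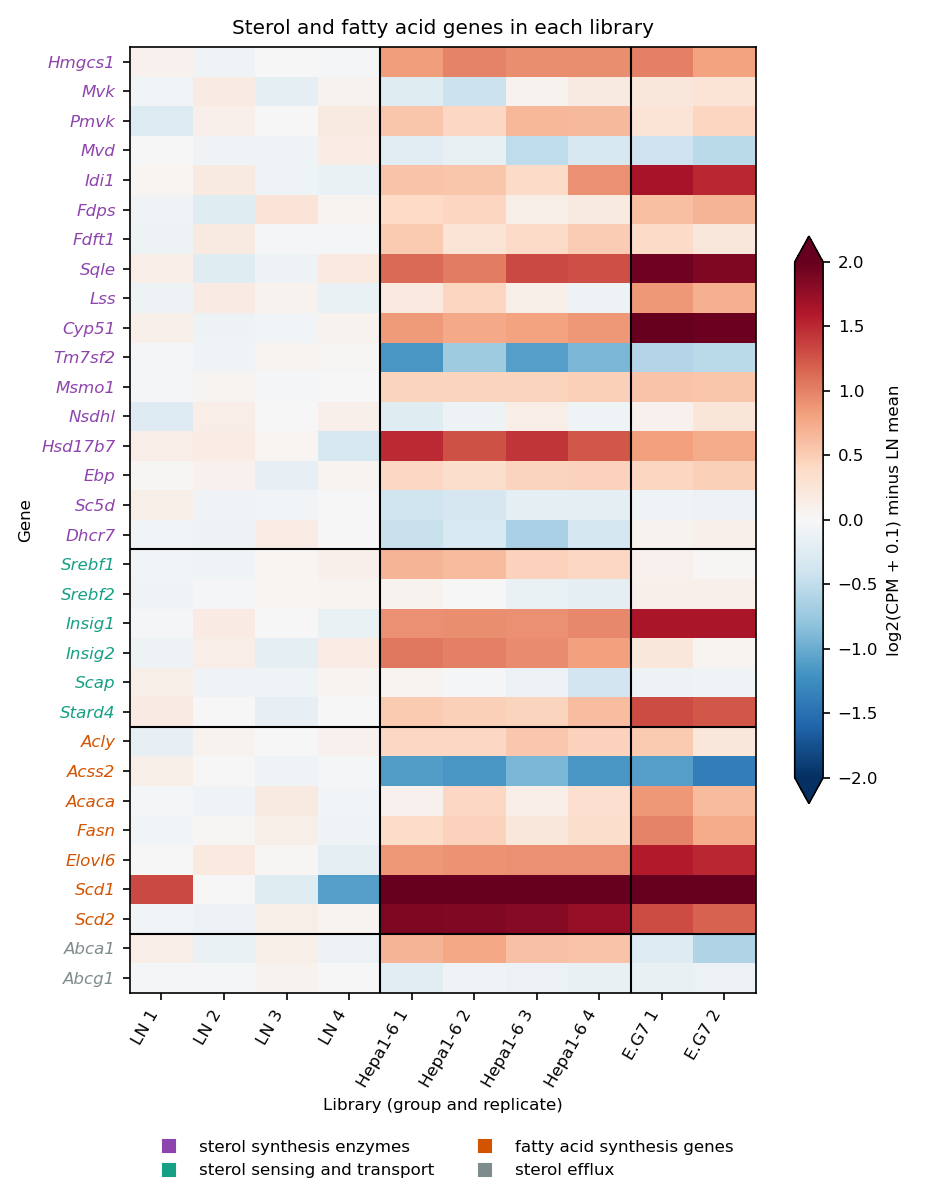
Level of the 32 genes (rows, coloured by role) in each of the 10 libraries (columns), as log2(CPM + 0.1) minus the mean of the 4 LN libraries; red is higher, blue is lower, and colours stop at 2 log2 units either way. Cyp51, Sqle, Idi1 and Insig1 are reddest in the 2 E.G7 columns, Insig2 and Hsd17b7 in the 4 Hepa1-6 columns, and Acss2 is blue in all 6 tumour columns.

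Among the enzymes that lead from acetyl-CoA to farnesyl diphosphate, 3 of 6 rose and 1 fell in Hepa1-6, and 4 rose and 1 fell in E.G7. Beside this, 37% of all genes tested rose and 31.1% fell in Hepa1-6, and 32.7% and 27.2% in E.G7. Hmgcs1, the HMG-CoA synthase that commits acetyl-CoA to the route, stood at 31.8, 28.6, 30.05 and 29.5 CPM in the LN libraries, 53.7, 59.7, 57.1 and 56.9 in those of Hepa1-6 and 60.2 and 52.6 in those of E.G7. Every tumour library was above every LN library, with log2 fold changes of 0.92 (SE 0.072, adjusted p = 1.12e-08) in Hepa1-6 and 0.91 (SE 0.085, adjusted p = 1.57e-07) in E.G7. The tumours overlapped, and their difference was 0.01 with a 95% interval of -0.16 to 0.18. Of the Hmgcs1 exon bases 12.1% are shared with Gm48342 on the other strand, so that its level is uncertain.

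Idi1, the isopentenyl diphosphate isomerase, did separate the tumours. Its libraries stood at 7.59, 8.37, 6.95 and 6.72 CPM in the LN libraries, 11.03, 10.9, 9.70 and 13.9 in those of Hepa1-6 and 23.4 and 21.2 in those of E.G7. The 3 groups did not overlap and stepped up from LN to Hepa1-6 to E.G7, by 1.54-fold (log2 fold change 0.62, SE 0.13, adjusted p = 0.000745) and 3.01-fold (log2 fold change 1.59, SE 0.15, adjusted p = 2.51e-07) over LN, and the log2 fold change of Hepa1-6 against E.G7 was -0.97 (SE 0.15, adjusted p = 7.57e-05). Of its exon bases 9.22% are shared with Gm48574 on the other strand. Overlaps with other genes also touch Scap (13.2%), Tm7sf2 (12.1%) and Acss2 (9.12%), and less than 4% of 5 other members.

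Mvk and Pmvk, the kinases that phosphorylate mevalonate in turn, differed in call. Mvk, at 9.999 ± 1.03 (LN), 9.39 ± 1.82 (Hepa1-6) and 11.8 ± 0.286 CPM (E.G7), passed in neither tumour (-0.09, adjusted p = 0.603 in Hepa1-6 and 0.24, adjusted p = 0.253 in E.G7). Pmvk, at 16.9 ± 2.24 (LN), 24.997 ± 2.01 (Hepa1-6) and 21.4 ± 1.63 CPM (E.G7), rose by 0.57 (SE 0.11, adjusted p = 0.0003) in Hepa1-6. It also passed in E.G7, by 0.34 (SE 0.13, adjusted p = 0.0379), and this call was lost without LN replicate 1 (adjusted p = 0.0976), LN replicate 3 (0.0611), E.G7 replicate 1 (0.0585) or E.G7 replicate 2 (0.242), under upper-quartile scaling and at a minimum of 10 CPM.

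Mvd, the decarboxylase that follows them, went down. It stood at 28.2, 26.5, 26.4 and 30.8 CPM in the LN libraries, 23.9, 25.2, 19.7 and 22.3 in those of Hepa1-6 and 20.9 and 19.2 in those of E.G7, and the LN libraries were the highest. The log2 fold changes were -0.30 (SE 0.098, adjusted p = 0.0133) in Hepa1-6 and -0.48 (SE 0.12, adjusted p = 0.00291) in E.G7. Neither passed with pan T cell scaling (-0.0044 and -0.18), and the Hepa1-6 call was lost without Hepa1-6 replicate 3 (adjusted p = 0.0506). Fdps, the farnesyl diphosphate synthase, averaged 5.84 ± 0.870 (LN), 7.09 ± 0.767 (Hepa1-6) and 9.10 ± 0.304 CPM (E.G7) and passed in E.G7 (0.64, adjusted p = 0.00583) but not in Hepa1-6 (0.28, adjusted p = 0.111); 26.7% of its exon bases are shared with Gm43738, so that its level is uncertain.

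From farnesyl diphosphate to lanosterol there are 3 enzymes. In Hepa1-6 2 of them rose, and in E.G7 3, where 37% and 32.7% of all genes tested rose. Fdft1, the squalene synthase, averaged 31.998 ± 2.86 (LN), 42.98 ± 3.42 (Hepa1-6) and 39.7 ± 3.04 CPM (E.G7), with log2 fold changes of 0.43 (SE 0.087, adjusted p = 0.000429) and 0.31 (SE 0.10, adjusted p = 0.0182). In E.G7 it no longer passed when E.G7 replicate 1 was left out (adjusted p = 0.173), under upper-quartile scaling (0.119), at a minimum of 10 CPM (0.0668) or with a replicate block (0.0602). Fdft1 shares 18.8% of its exon bases with Ctsb on the other strand, a lysosomal protease gene that stood at 407 ± 32.4, 2159 ± 73.7 and 805 ± 24.9 CPM in LN, Hepa1-6 and E.G7. No source used here gives the strand setting of the counting, and the part of Ctsb reads in the Fdft1 values was not tested.

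Sqle, the squalene epoxidase and a slow step of the route, moved more. It stood at 26.1, 20.1, 22.2 and 27.2 CPM in the LN libraries, 52.4, 48.3, 59.2 and 58.2 in those of Hepa1-6 and 91.7 and 86.9 in those of E.G7. Groups did not overlap, and Sqle was 2.28-fold higher in Hepa1-6 (log2 fold change 1.19, SE 0.098, adjusted p = 2.2e-08) and 3.73-fold higher in E.G7 (log2 fold change 1.90, SE 0.11, adjusted p = 7.09e-10). Hepa1-6 lay below E.G7 (log2 fold change -0.71, SE 0.11, adjusted p = 7.44e-05). Lss, which closes the ring to lanosterol, stood at 16.8, 20.2, 18.9 and 16.5 CPM in the LN libraries, 20.7, 24.3, 19.7 and 16.8 in those of Hepa1-6 and 32.9 and 29.8 in those of E.G7. Its E.G7 libraries lay above all others (log2 fold change 0.79, SE 0.14, adjusted p = 0.000127), while the Hepa1-6 and LN libraries overlapped (0.17, adjusted p = 0.207), and the tumours differed by -0.62 (SE 0.14, adjusted p = 0.00151).

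Of the 8 enzymes that turn lanosterol into cholesterol, 4 rose and 3 fell in Hepa1-6, and 4 rose and 1 fell in E.G7. The shares of all genes tested were 37% higher and 31.1% lower in Hepa1-6, and 32.7% and 27.2% in E.G7.

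Cyp51, the lanosterol demethylase, had the largest log2 fold change of the sterol enzymes in E.G7. It stood at 43.6, 37.7, 38.96 and 42.7 CPM in the LN libraries, 73.3, 68.7, 71.1 and 73.9 in those of Hepa1-6 and 167 and 158 in those of E.G7. Each group was tight and apart from the others, with 1.76-fold in Hepa1-6 (log2 fold change 0.82, SE 0.064, adjusted p = 1.13e-08), 3.99-fold in E.G7 (log2 fold change 1.997, SE 0.073, adjusted p = 2.39e-12) and a difference of -1.18 (SE 0.073, adjusted p = 2.35e-09) between the tumours. Hsd17b7, a ketoreductase of sterol demethylation, ran the other way between tumours. It stood at 10.4, 10.5, 9.68 and 7.54 CPM in the LN libraries, 26.7, 22.96, 25.7 and 22.5 in those of Hepa1-6 and 16.8 and 15.8 in those of E.G7. All Hepa1-6 libraries were above E.G7, and both tumours above LN, by 1.36 (SE 0.12, adjusted p = 5.29e-08) in Hepa1-6 and 0.78 (SE 0.14, adjusted p = 0.000219) in E.G7. The difference between tumours, 0.58 (SE 0.15, adjusted p = 0.00358), was lost without E.G7 replicate 2 (adjusted p = 0.0515).

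Smaller rises were shared by Msmo1, the methylsterol oxidase, and Ebp, the sterol isomerase. Msmo1 averaged 33.998 ± 0.772 (LN), 46.6 ± 0.618 (Hepa1-6) and 50.5 ± 0.447 CPM (E.G7) (log2 fold change 0.46, SE 0.063, adjusted p = 1.02e-05 and 0.57 (SE 0.076, adjusted p = 8.51e-06) against LN). Ebp averaged 57.3 ± 4.30 (LN), 76.6 ± 2.45 (Hepa1-6) and 78.2 ± 2.19 CPM (E.G7) (log2 fold change 0.42, SE 0.065, adjusted p = 3.38e-05 and 0.45 (SE 0.078, adjusted p = 0.000132)). Neither differed past the threshold between tumours, with 95% intervals of -0.26 to 0.04 for Msmo1 and -0.19 to 0.12 for Ebp on the log2 scale. Nsdhl, the dehydrogenase that works beside Hsd17b7, averaged 26.2 ± 3.06 (LN), 24.9 ± 2.62 (Hepa1-6) and 29.1 ± 2.29 CPM (E.G7) and passed in neither tumour (-0.07, adjusted p = 0.555 and 0.15, adjusted p = 0.316).

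The enzymes that fell reduce or desaturate the sterol ring. Tm7sf2, a sterol reductase, stood at 13.998, 13.5, 14.8 and 14.4 CPM in the LN libraries, 6.29, 8.61, 6.52 and 7.43 in those of Hepa1-6 and 9.40 and 9.68 in those of E.G7. LN was above all tumour libraries, with -0.97 (SE 0.13, adjusted p = 4.93e-06) in Hepa1-6 and -0.57 (SE 0.16, adjusted p = 0.00499) in E.G7, and the E.G7 call was lost with pan T cell scaling (-0.27, adjusted p = 0.169). Its step can also be done by Lbr, which did not pass in Hepa1-6 (-0.05, adjusted p = 0.425) and rose in E.G7 (0.30, adjusted p = 0.000724). The gap between the tumours in Tm7sf2 (-0.40, adjusted p = 0.0429) was lost in 6 of 18 alternatives, among them each E.G7 library left out (0.123 without replicate 1 and 0.174 without replicate 2) and Hepa1-6 replicates 1 (0.0994) and 3 (0.0942) left out.

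Dhcr7, which can make cholesterol in the last step, stood at 48.4, 46.7, 55.7 and 49.99 CPM in the LN libraries, 36.7, 40.5, 31.8 and 39.2 in those of Hepa1-6 and 52.4 and 53.9 in those of E.G7. It was lowest in the Hepa1-6 libraries, -0.44 (SE 0.085, adjusted p = 0.000277) against LN and -0.52 (SE 0.10, adjusted p = 0.000535) against E.G7, and did not pass in E.G7 (0.08, adjusted p = 0.517); with pan T cell scaling the LN difference of Hepa1-6 was -0.15 (adjusted p = 0.182). Sc5d, the sterol desaturase, averaged 70.2 ± 4.40 (LN), 57.8 ± 4.28 (Hepa1-6) and 65.3 ± 1.28 CPM (E.G7). It fell in Hepa1-6 (log2 fold change -0.28, SE 0.069, adjusted p = 0.00213), a change that turned to 0.01 with pan T cell scaling, and did not pass in E.G7 (-0.10, adjusted p = 0.305).

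**Figure D2:**
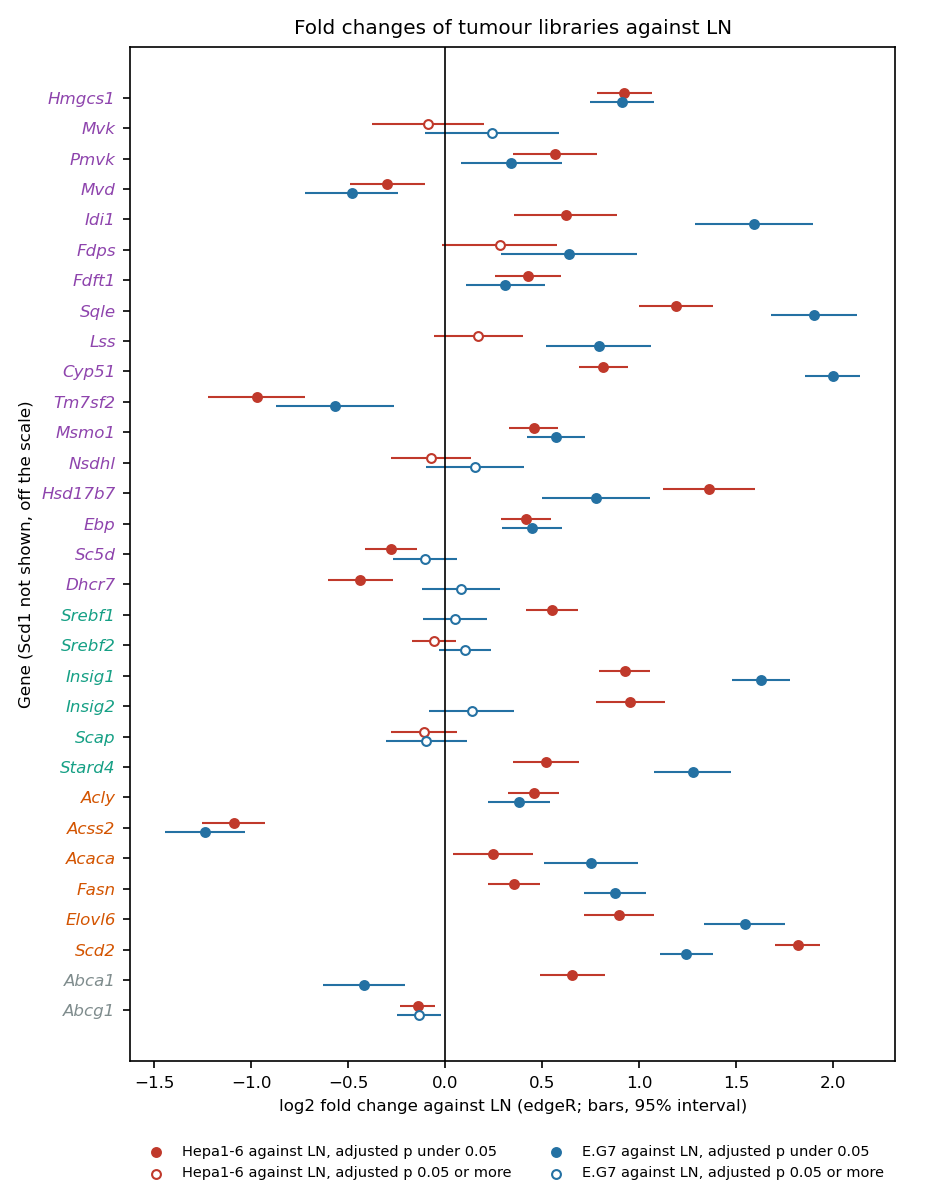
Log2 fold change against LN of 31 genes (rows, gene names coloured by role) in Hepa1-6 and E.G7, from edgeR with 95% intervals; filled points passed an adjusted p of 0.05, and Scd1 is left out because it lies off the scale. Cyp51 reaches 1.997 in E.G7 against 0.82 in Hepa1-6, Insig2 0.14 against 0.96, and Acss2 lies at -1.24 and -1.09. Pan T cell scaling moves the median of all genes from 0.04 to 0.33 in Hepa1-6 and from 0.01 to 0.32 in E.G7. With it Mvd in both tumours, Dhcr7 in Hepa1-6 and Tm7sf2 and Abca1 in E.G7 no longer pass. Sc5d, Scap and Abcg1 then change sign in both tumours, and Mvk, Nsdhl and Srebf2 in Hepa1-6.

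Of the genes that sense or carry sterols, 4 of 6 rose in Hepa1-6 and 2 in E.G7, and none fell in either. Of all genes tested, 37% rose and 31.1% fell in Hepa1-6, and 32.7% rose and 27.2% fell in E.G7. The count that rose in E.G7 was thus near the share of all genes. The 2 SREBP genes differed. Srebf2, the regulator of the sterol enzymes, averaged 318 ± 12.2 (LN), 305 ± 25.1 (Hepa1-6) and 341 ± 1.40 CPM (E.G7) and passed in neither tumour (-0.06, adjusted p = 0.385 and 0.10, adjusted p = 0.218). Its direction in Hepa1-6 turned with the scaling: it was called lower with upper-quartile scaling (-0.24, adjusted p = 0.00125) and higher with pan T cell scaling (0.23, adjusted p = 0.00229). In E.G7 it was called higher with pan T cell scaling (0.41, adjusted p = 0.000129). Srebf1 stood at 83.4, 81.7, 89.3 and 93.4 CPM in the LN libraries, 139, 134, 119.9 and 116 in those of Hepa1-6 and 92.2 and 87.99 in those of E.G7. Its Hepa1-6 libraries were above all others, by 0.55 (SE 0.069, adjusted p = 3.03e-06) against LN and 0.50 (SE 0.085, adjusted p = 0.000157) against E.G7. E.G7 overlapped LN (0.05, adjusted p = 0.631). Counts over a whole gene do not tell the SREBP1a and SREBP1c transcripts apart.

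The INSIG genes, whose proteins hold SCAP and SREBP in the endoplasmic reticulum, took opposite orders in the tumours. Insig1, itself a target of SREBP, stood at 42.2, 48.01, 42.5 and 38.8 CPM in the LN libraries, 80.4, 81.5, 80.2 and 83.6 in those of Hepa1-6 and 132 and 133 in those of E.G7. It stepped up without overlap, 1.90-fold in Hepa1-6 (log2 fold change 0.93, SE 0.066, adjusted p = 3.86e-09) and 3.09-fold in E.G7 (log2 fold change 1.63, SE 0.077, adjusted p = 4.6e-11), and Hepa1-6 was below E.G7 (log2 fold change -0.70, SE 0.077, adjusted p = 1.6e-06). Insig2 stood at 26.9, 31.8, 25.4 and 32.1 CPM in the LN libraries, 60.3, 58.2, 55.7 and 51.1 in those of Hepa1-6 and 33.9 and 30.03 in those of E.G7. The Hepa1-6 libraries stood apart, 0.96 (SE 0.092, adjusted p = 1.43e-07) above LN and 0.82 (SE 0.11, adjusted p = 2.22e-05) above E.G7, while E.G7 overlapped LN (0.14, adjusted p = 0.308).

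Stard4, a soluble carrier that moves cholesterol between membranes, stood at 22.6, 20.1, 18.1 and 20.4 CPM in the LN libraries, 29.04, 28.3, 27.6 and 31.2 in those of Hepa1-6 and 50.1 and 48.1 in those of E.G7. It rose by 0.52 (SE 0.087, adjusted p = 6.85e-05) in Hepa1-6 and 1.28 (SE 0.10, adjusted p = 2.24e-08) in E.G7, with the 3 groups apart and a difference of -0.76 (SE 0.10, adjusted p = 1.31e-05) between tumours. Scap, the escort of SREBP, stood at 61.9, 54.3, 53.7 and 59.5 CPM in the LN libraries, 59.6, 55.8, 52.9 and 43.9 in those of Hepa1-6 and 53.5 and 53.7 in those of E.G7 and did not pass in any comparison (-0.11, adjusted p = 0.267 in Hepa1-6 and -0.10, adjusted p = 0.454 in E.G7). Of the sterol genes so far, Sqle, Cyp51, Idi1, Insig1, Stard4, Lss, Dhcr7 and Tm7sf2 were thus called higher in E.G7 than in Hepa1-6. Insig2, Srebf1 and Hsd17b7 were called lower. Among the T lymphoma and immature thymocyte markers, Dntt and Trap1a were also higher in E.G7 than in Hepa1-6, and Cd8b1 was lower. The part of lymphoma cells in these values was not tested.

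**Figure D3:**
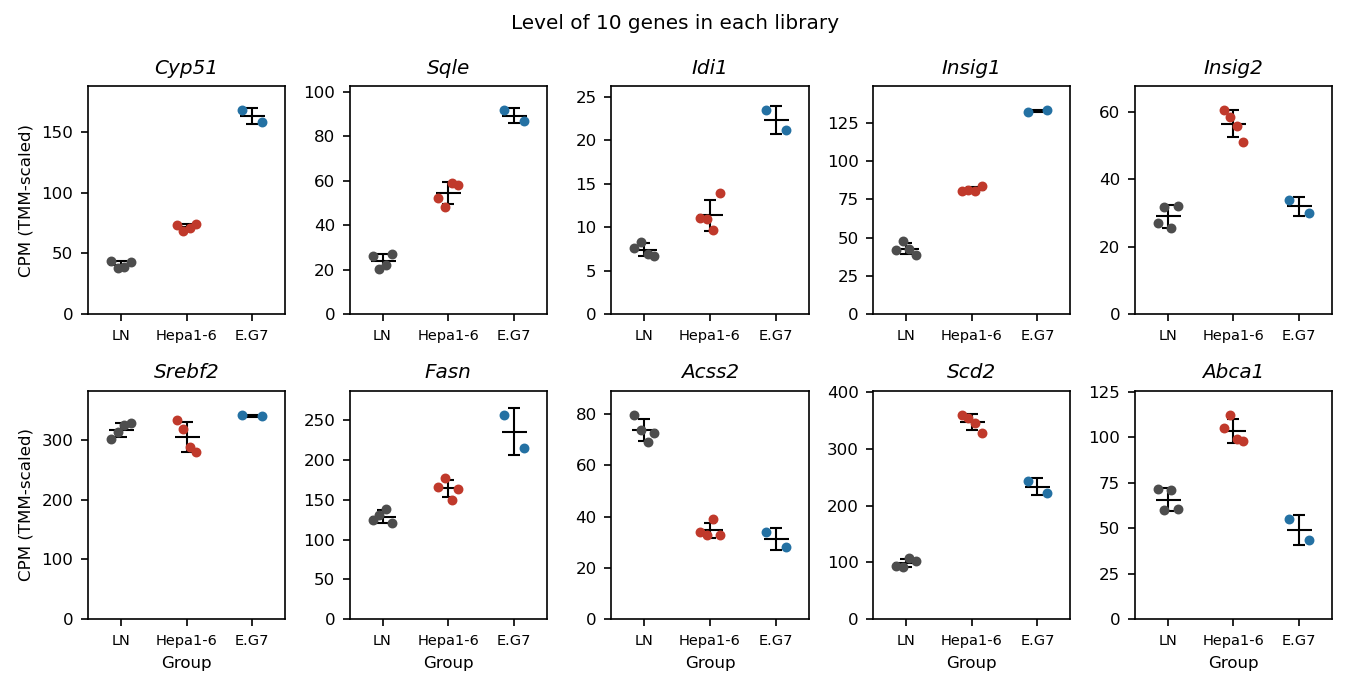
CPM (TMM-scaled) of 10 genes in each library, with points for libraries and black bars for mean ± SD (n = 4 LN, 4 Hepa1-6 and 2 E.G7); each axis starts at 0. Cyp51 runs from 37.7 CPM in LN to 167 CPM in E.G7, the Srebf2 means lie between 305 and 341 CPM, and Acss2 drops from at least 69.1 CPM in LN to at most 38.9 CPM in the tumours.

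Fatty acid synthesis opens with the supply of cytosolic acetyl-CoA, and its sources went in opposite directions. Acly, which splits citrate exported from mitochondria, stood at 252, 296, 285 and 300.2 CPM in the LN libraries, 377, 378, 413 and 387 in those of Hepa1-6 and 406 and 331 in those of E.G7. It rose by 0.46 (SE 0.068, adjusted p = 2.13e-05) in Hepa1-6 and 0.38 (SE 0.082, adjusted p = 0.000892) in E.G7, with all tumour libraries above LN. Acss2, which makes acetyl-CoA from acetate, stood at 79.5, 73.6, 69.1 and 72.5 CPM in the LN libraries, 33.9, 32.8, 38.9 and 32.7 in those of Hepa1-6 and 34.1 and 28.3 in those of E.G7. Its LN libraries were all above the tumour libraries, and the gene was 2.13-fold lower in Hepa1-6 (log2 fold change -1.09, SE 0.082, adjusted p = 7.56e-09) and 2.36-fold lower in E.G7 (log2 fold change -1.24, SE 0.11, adjusted p = 5.41e-08). Acss2 was the 1 member lower in both tumours under all scalings tried. Neither gene differed past the threshold between tumours, with 95% intervals of -0.09 to 0.24 for Acly and -0.05 to 0.35 for Acss2.

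Acaca, the acetyl-CoA carboxylase that makes malonyl-CoA, stood at 19.3, 18.8, 22.5 and 19.03 CPM in the LN libraries, 20.95, 26.5, 21.8 and 25.2 in those of Hepa1-6 and 36.2 and 30.8 in those of E.G7. The E.G7 libraries were the highest (log2 fold change 0.75, SE 0.12, adjusted p = 7.85e-05 against LN and -0.50 (SE 0.12, adjusted p = 0.0034) for Hepa1-6 against E.G7), and the latter was lost without E.G7 replicate 1 (adjusted p = 0.0779). Hepa1-6 and LN overlapped, and the difference of 0.25 (SE 0.11, adjusted p = 0.0482) lost its call in 14 of 20 alternatives, among them each of 3 LN libraries left out (replicates 1, 2 and 4, 0.0985, 0.117 and 0.105) and Hepa1-6 replicates 2 (0.150) or 4 (0.103) left out.

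Fasn, the fatty acid synthase, stood at 124, 130.3, 139 and 121 CPM in the LN libraries, 166, 177, 150.2 and 164 in those of Hepa1-6 and 256 and 215 in those of E.G7. All 3 groups were apart, at 0.36 (SE 0.069, adjusted p = 0.000264) in Hepa1-6, 0.87 (SE 0.081, adjusted p = 1.53e-07) in E.G7 and -0.52 (SE 0.082, adjusted p = 7.35e-05) between them. Elovl6, which lengthens the palmitate that Fasn makes, stood at 14.4, 16.6, 14.7 and 12.7 CPM in the LN libraries, 26.8, 27.2, 27.5 and 27.6 in those of Hepa1-6 and 43.9 and 41.5 in those of E.G7. It followed the same order, 1.86-fold in Hepa1-6 (log2 fold change 0.90, SE 0.092, adjusted p = 3.17e-07) and 2.92-fold in E.G7 (log2 fold change 1.55, SE 0.11, adjusted p = 4.39e-09), with -0.65 (SE 0.11, adjusted p = 0.000109) between the tumours.

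The desaturases, which place the double bond of oleate, took the reverse order. Scd2 stood at 94.2, 91.1, 107 and 102 CPM in the LN libraries, 359.6, 355, 346 and 328 in those of Hepa1-6 and 244 and 223 in those of E.G7. It was 3.52-fold higher in Hepa1-6 (log2 fold change 1.82, SE 0.06, adjusted p = 2.31e-13), 2.37-fold higher in E.G7 (log2 fold change 1.24, SE 0.069, adjusted p = 3.51e-10) and higher in Hepa1-6 than in E.G7 by 0.57 (SE 0.073, adjusted p = 7.94e-06). Scd1, its neighbour and close paralog on chromosome 19, was almost silent in LN, with 11, 3, 2 and 0 counts per library, which is 0.435, 0.116, 0.0803 and 0 CPM. It stood at 87.4, 84.9, 87.1 and 98.4 CPM in Hepa1-6 and 8.69 and 12.1 CPM in E.G7. The ratio of summed counts to LN, scaled for depth, was 569 in Hepa1-6 (exact 95% interval 350 to 997, counting error only) and 66.4 in E.G7 (40.5 to 117). The fitted log2 fold changes were 9.11 (SE 0.29, adjusted p = 5.16e-12) and 6.01 (SE 0.36, adjusted p = 8.04e-09), and 10.31 and 7.21 without LN replicate 1, which held 11 of the 16 LN counts; between tumours it was 3.10 (SE 0.22, adjusted p = 1.08e-07). Reads that match both paralogs may have been split or dropped in the counting.

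Scd1 is also a gene of hepatocytes and macrophages, and the marker sums of other cells are set beside it here. The macrophage and neutrophil list (14 of 14 higher) summed to a mean of 32.7 CPM in LN, 4211 in Hepa1-6 and 770.2 in E.G7, and the hepatoma list (8 of 12 higher in Hepa1-6) to 6.95, 1553 and 4.73 CPM. The dendritic cell and MHC class II list (9 of 9 higher in both) went from 161 to 9684 and 1729 CPM. Their part in the Scd1 and Scd2 values was not tested. In E.G7 the hepatoma sum was below that of LN. Of its 8 tested markers, 4 were called higher there (Apoa2, Krt19, Krt8 and Krt18), 1 was lower (Afp) and 3 did not pass. Scd1 was higher in E.G7 than in LN.

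**Figure D4:**
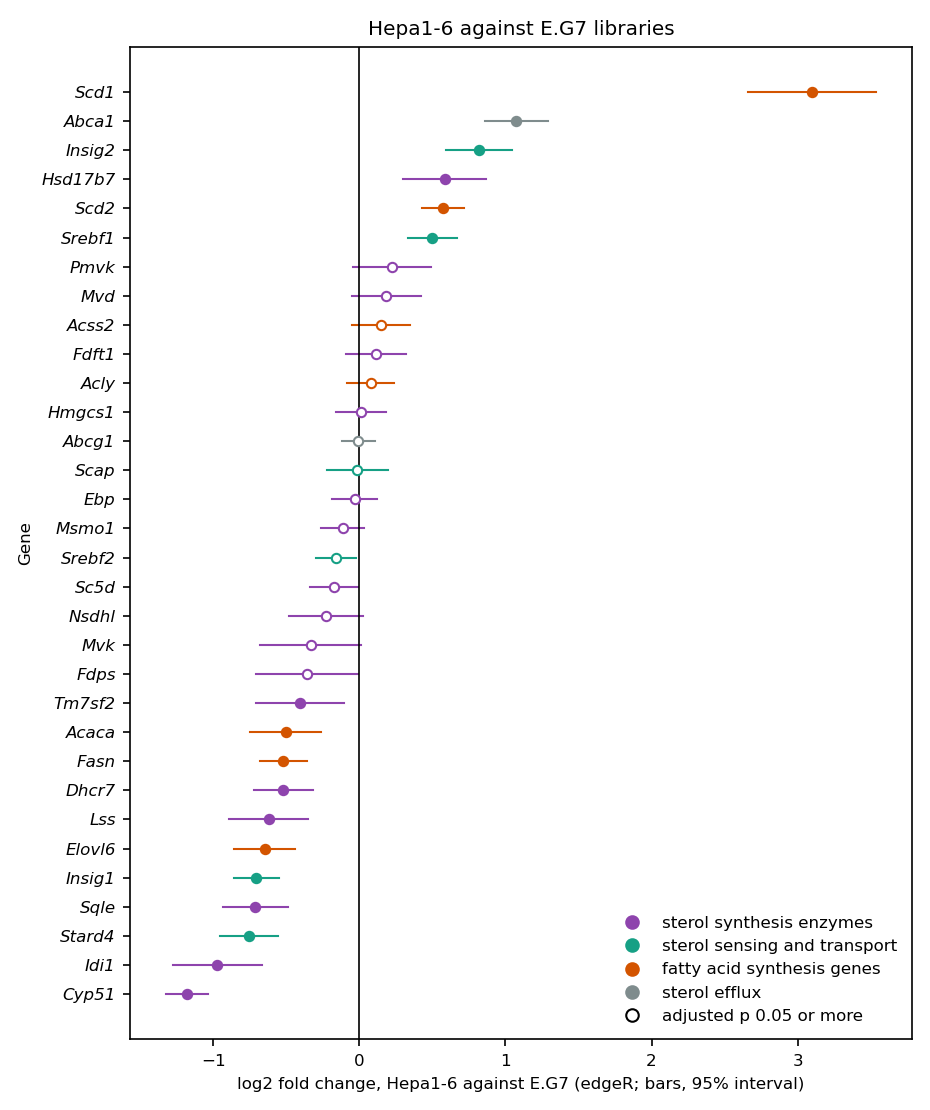
Log2 fold change of Hepa1-6 against E.G7 for each member (rows, coloured by role) from edgeR, with 95% intervals; positive is higher in Hepa1-6 and open points have an adjusted p of 0.05 or more. Scd1 (3.10) and Abca1 lie at the upper end, Cyp51 (-1.18) and Idi1 (-0.97) at the lower end.

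The efflux pumps differed from each other. Abca1, which loads cholesterol onto apolipoprotein A-I, stood at 71.5, 59.7, 71.2 and 60.4 CPM in the LN libraries, 105, 112, 98.7 and 97.7 in those of Hepa1-6 and 54.9 and 43.3 in those of E.G7. It rose in Hepa1-6 by 0.66 (SE 0.086, adjusted p = 5.12e-06), without overlap with LN, and was higher there than in E.G7 by 1.07 (SE 0.11, adjusted p = 7.5e-07). In E.G7 it fell (log2 fold change -0.42, SE 0.11, adjusted p = 0.00325). Without E.G7 replicate 2 this fall did not pass (-0.25, adjusted p = 0.108), nor did it with pan T cell scaling (-0.12, 0.425). Abca1 is abundant in macrophages. The 14 macrophage and neutrophil markers summed to 25.6 to 37.5 CPM in LN, 4070 to 4382 CPM in Hepa1-6 and 755 and 786 CPM in E.G7. The part of these cells in the Abca1 values was not tested. Abcg1, which exports sterol to high-density lipoprotein, averaged 386 ± 12.04 (LN), 349.5 ± 15.9 (Hepa1-6) and 351 ± 6.56 CPM (E.G7). Its difference from LN was -0.14 (SE 0.046, adjusted p = 0.0126) in Hepa1-6, lost without Hepa1-6 replicate 1 (adjusted p = 0.0553). It turned to 0.15 (adjusted p = 0.0275) there with pan T cell scaling. In E.G7 the difference was -0.14 (SE 0.057, adjusted p = 0.0514). There it was called lower in 7 of 18 alternatives, among them upper-quartile scaling (-0.25, adjusted p = 0.00189), while pan T cell scaling turned it to 0.17 (adjusted p = 0.0446).

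Per kilobase of exon, the members spanned a wide range of levels. In LN the highest mean CPM per kilobase was that of Acly (53.7), followed by Abcg1 (52.9), Srebf2 (44.2) and Ebp (24.8), and the lowest were Scd1 (0.0322), Acaca (1.16), Fdps (1.39) and Lss (1.68). In Hepa1-6 Acly led with 73.6 CPM per kilobase, ahead of Scd2 (63.6). In E.G7 Insig1 (42.9), Scd2 (42.7) and Cyp51 (36.9) came after Acly (69.8), Abcg1 (48.1) and Srebf2 (47.4) on this scale. The length counts all exons of a gene model, so that genes with many annotated isoforms, such as Lss, are understated.

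Sterol and fatty acid genes were also set side by side in each library, as the median over the group of the log2 level minus the LN mean. For the sterol enzymes the median was 0.39 to 0.47 in the Hepa1-6 libraries and 0.42 and 0.48 in E.G7. For the fatty acid genes it lay between 0.41 and 0.55 (Hepa1-6) and at 0.998 and 0.744 (E.G7). The summed sterol enzyme CPM was 465.8 to 483.6 (LN), 585 to 613 (Hepa1-6) and 779 and 754 (E.G7). The summed fatty acid gene CPM was 584 to 637 (LN), 1063 to 1084 (Hepa1-6) and 1029 and 882 (E.G7). The tumour libraries were above LN in all of these, and the sums rank Hepa1-6 and E.G7 in opposite ways for the sterol and the fatty acid genes. The fatty acid medians put E.G7 first where the sums put Hepa1-6 first, and Scd1 and Scd2 are part of those sums. These orders were not tested.

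**Figure D5:**
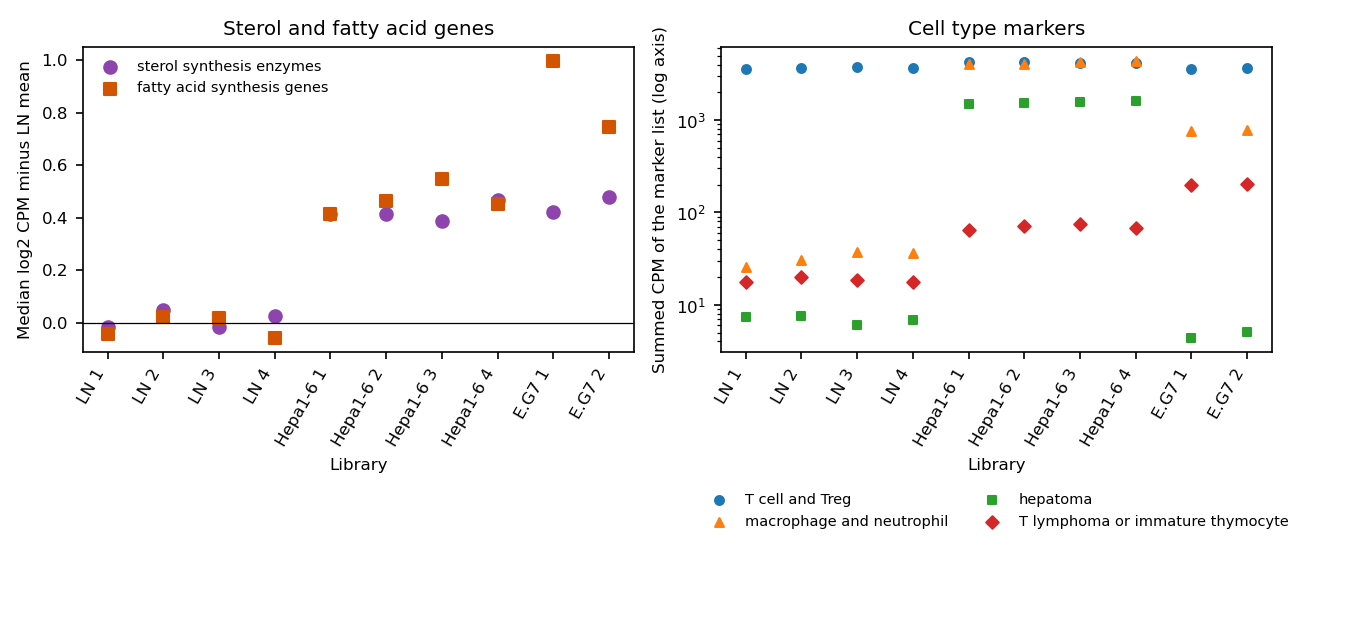
Left, the median over sterol enzymes (17) and fatty acid genes (7) of log2 CPM minus the LN mean in each library; right, the summed CPM of 4 marker lists on a log axis. The fatty acid medians of E.G7, 0.998 and 0.744, lie above those of Hepa1-6, at most 0.55, while the macrophage sum is 755 and 786 CPM in E.G7 and at least 4070 CPM in Hepa1-6.

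Other genes of the same pathways were counted from lists outside the 32, beside which stand the shares of all genes tested: 37% rose and 31.1% fell in Hepa1-6, and 32.7% rose and 27.2% fell in E.G7. On the branch that leaves farnesyl diphosphate for prenyl groups, dolichol and ubiquinone, 1 of 9 genes rose and 4 fell in Hepa1-6, and 3 rose and 3 fell in E.G7, where the shares were close to those of all genes. Fntb, the catalytic subunit of protein farnesyltransferase, averaged 47.3 ± 2.14 (LN), 19.2 ± 1.65 (Hepa1-6) and 43.1 ± 2.32 CPM (E.G7). It fell in Hepa1-6 (log2 fold change -1.30, SE 0.082, adjusted p = 8.36e-10) and lay below E.G7 there (log2 fold change -1.17, SE 0.096, adjusted p = 6.85e-08), and did not pass in E.G7 (-0.13, adjusted p = 0.252). Pdss2, a subunit of the enzyme that makes the ubiquinone tail, fell in Hepa1-6 as well (log2 fold change -0.98, SE 0.14, adjusted p = 9.94e-06) and did not pass in E.G7 (-0.18, adjusted p = 0.372). Ggps1, the geranylgeranyl diphosphate synthase, fell in both tumours, at -0.45 (SE 0.072, adjusted p = 4.05e-05) in Hepa1-6 and -0.46 (SE 0.089, adjusted p = 0.000346) in E.G7. Nus1, a subunit of the dolichol-making enzyme, rose in both, by 0.47 (SE 0.12, adjusted p = 0.00237) and 0.70 (SE 0.14, adjusted p = 0.000432).

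Of 7 genes that cut SREBP or act in the sterol-regulated breakdown of membrane enzymes, 2 rose and 2 fell in Hepa1-6, and 2 rose and 3 fell in E.G7, where 37% and 31.1% of all genes did so in Hepa1-6 and 32.7% and 27.2% in E.G7. Erlin1, part of a complex that restrains SREBP in the endoplasmic reticulum, rose in both, by 1.40 (SE 0.11, adjusted p = 1.11e-08) and 1.45 (SE 0.13, adjusted p = 7.21e-08). Its partner Erlin2 rose in Hepa1-6 (log2 fold change 0.85, SE 0.10, adjusted p = 2.31e-06) and did not pass in E.G7 (0.16, adjusted p = 0.301). Mbtps1, the protease that makes the first cut in SREBP, was lower in both, at -0.43 (SE 0.065, adjusted p = 2.25e-05) in Hepa1-6 and -0.59 (SE 0.081, adjusted p = 1.23e-05) in E.G7. Of 3 further sterol synthesis genes, 1 rose and 1 fell in Hepa1-6 and 2 rose in E.G7: Acat2, which makes acetoacetyl-CoA, fell in Hepa1-6 (log2 fold change -0.97, SE 0.092, adjusted p = 1.25e-07; -0.06, adjusted p = 0.644 in E.G7), Aacs, which makes it from acetoacetate, rose there (log2 fold change 0.48, SE 0.089, adjusted p = 0.000181), and Lbr and Aacs rose in E.G7.

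Cholesterol storage and movement held 5 of 8 genes higher and 1 lower in Hepa1-6, and 2 higher and 1 lower in E.G7, beside 37% and 31.1% of all genes in Hepa1-6 and 32.7% and 27.2% in E.G7. Soat1, which esterifies cholesterol for storage, rose by 1.03 (SE 0.063, adjusted p = 4.95e-10) in Hepa1-6 and 0.82 (SE 0.074, adjusted p = 1.12e-07) in E.G7. Npc2, which carries cholesterol out of lysosomes, rose in Hepa1-6 (log2 fold change 0.89, SE 0.057, adjusted p = 9.96e-10) and did not pass in E.G7 (0.08, adjusted p = 0.319). Lipa, the lysosomal lipase that frees it, fell in E.G7 (log2 fold change -0.75, SE 0.073, adjusted p = 2.72e-07) and did not pass in Hepa1-6 (0.01, adjusted p = 0.942). Of 5 LXR receptors and targets other than Abca1, Abcg1 and Srebf1, 3 rose and 2 fell in Hepa1-6, 2 rose and 2 fell in E.G7, and all 5 were higher in Hepa1-6 than in E.G7, as were 26.1% of all genes. Nr1h3, the LXR alpha receptor, went from 1.41 CPM in LN to 11.8 CPM in Hepa1-6 (log2 fold change 3.06, SE 0.21, adjusted p = 2.19e-09) and 2.90 CPM in E.G7 (log2 fold change 1.04, SE 0.26, adjusted p = 0.00248). Lpcat3, a phospholipid acyltransferase, rose by 1.25 (SE 0.059, adjusted p = 1.98e-11) in Hepa1-6 and 0.54 (SE 0.07, adjusted p = 6.49e-06) in E.G7. Mylip, a ubiquitin ligase, fell in both, at -0.91 (SE 0.084, adjusted p = 9.03e-08) and -1.57 (SE 0.11, adjusted p = 5.9e-09).

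Beside the fatty acid members, 10 of 15 tested genes of supply, elongation and desaturation rose and 2 fell in Hepa1-6, and 9 rose and 0 fell in E.G7, beside 37% and 31.1% of all genes in Hepa1-6 and 32.7% and 27.2% in E.G7. Me1, the malic enzyme that makes NADPH for lipid synthesis, averaged 0.147 ± 0.0853 (LN), 48.5 ± 3.80 (Hepa1-6) and 0.204 ± 0.0798 CPM (E.G7). It rose in Hepa1-6 (log2 fold change 8.32, SE 0.20, adjusted p = 4.24e-15), with 0.45, adjusted p = 0.5 in E.G7 and 7.86 (SE 0.26, adjusted p = 1.9e-12) between the tumours. Fads2, a desaturase of polyunsaturated fatty acids, had 3 counts over the LN group. Its ratio of summed counts to LN was 857 in Hepa1-6 (exact 95% interval 293 to 4158) and 82.2 in E.G7 (27.5 to 404). Slc25a1, the citrate exporter that feeds Acly, rose in both tumours, by 1.20 (SE 0.071, adjusted p = 3.34e-10) in Hepa1-6 and 0.86 (SE 0.084, adjusted p = 2.53e-07) in E.G7, and was the higher in Hepa1-6 (0.34, adjusted p = 0.00388). Mid1ip1, an activator of acetyl-CoA carboxylase, rose in both too, by 1.20 (SE 0.072, adjusted p = 3.93e-10) and 1.45 (SE 0.083, adjusted p = 5e-10), and was the higher in E.G7 (-0.25, adjusted p = 0.0245). The hepatoma markers were high in the same group as Me1, and both marker lists were high in Hepa1-6 with Fads2; their part in these values was not tested.

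All 4 tested acyl-CoA synthetases, which activate fatty acids, rose in both tumours and were higher in Hepa1-6 than in E.G7, where 37%, 32.7% and 26.1% of all genes were called in these directions. Acsl1 averaged 21.8, 112 and 31.3 CPM in LN, Hepa1-6 and E.G7, with log2 fold changes of 2.37 (SE 0.074, adjusted p = 1.02e-13) and 0.52 (SE 0.087, adjusted p = 8.58e-05). Acsl4 rose by 1.13 (SE 0.06, adjusted p = 8.76e-11) and 0.57 (SE 0.071, adjusted p = 4.47e-06). Of 8 tested genes of fatty acid oxidation, 4 rose and 0 fell in Hepa1-6, and 5 rose and 1 fell in E.G7, beside 37% and 31.1% of all genes in Hepa1-6 and 32.7% and 27.2% in E.G7. Acadl, a mitochondrial acyl-CoA dehydrogenase, rose by 1.498 (SE 0.076, adjusted p = 4.79e-11) and 1.40 (SE 0.088, adjusted p = 1.38e-09). Cpt1a, which lets fatty acids into mitochondria, rose by 0.57 (SE 0.063, adjusted p = 7.9e-07) and 0.69 (SE 0.076, adjusted p = 9.58e-07). Hadhb, of the trifunctional protein, was lower in Hepa1-6 than in E.G7 (log2 fold change -0.56, SE 0.062, adjusted p = 1.83e-06); it rose in E.G7 (0.46, adjusted p = 8.35e-06) and did not pass in Hepa1-6 (-0.09, adjusted p = 0.13).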

How the data were processed

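Read counts as whole numbers were deposited for 55291 genes in each of 10 libraries, in 1 table laid out as featureCounts writes it, per the file headers. The authors' deposited FPKM values cover 12930 genes in each library and served only in alternatives. The mm10 build and the tools DESeq2, RSEM, Subread, featureCounts and HISAT2 are named per the submitters' processing notes; their versions, the annotation release and the strand setting are not given in the sources used here, so that genes sharing exons with others are uncertain.

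The counts were fitted with edgeR 4.0.16 in R 4.3.3: filterByExpr by group (20068 genes kept), TMM scaling and 1 robust quasi-likelihood fit with a term per group over the 10 libraries, with Benjamini-Hochberg adjustment over all genes tested and a threshold of 0.05. The SE was taken from the fold change and the square root of its quasi-likelihood F, and 95% intervals are 1.96 SE either way. Exact intervals of count ratios cover counting error only. Replicates of a group differed by more than sampling noise in every pair. Coordinates and exon overlaps come from the count table, promoters from RefSeq.

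The members and gene lists were chosen with earlier results of these data known. All 32 members are described, and for each pathway list up to 2 genes with the smallest adjusted p per comparison are named; Lbr is also named beside Tm7sf2. Lists are described by counts and medians, with no test. Alternatives were RLE, upper-quartile and pan T cell scaling, a filter of 10 CPM and none, limma-voom (limma 3.58.1), DESeq2 1.42.0, fits of the compared groups alone, a replicate block, limma on log2(FPKM + 1) and log2(FPKM + 0.1), and each library left out in turn.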

Additional observations from a re-analysis of the deposited data

Results flagged for a closer look

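In LN, the level of Acaca in replicate 3 stood apart from the other libraries of its group: it was 22.5 CPM, against 18.8 to 19.3 CPM in the other 3. The gap to its nearest neighbour was 0.869 of the whole range of the group, above Dixon's critical value of 0.829 for 4 libraries. A total of 64 groups of 4 libraries were examined, of which chance flags about 1 in 20, and this was the 1 that passed.

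Abca1 took opposite directions in the tumours. It rose in Hepa1-6 and fell in E.G7 against the same LN libraries, and the difference between the tumours, tested directly with edgeR, was 1.07 on the log2 scale (adjusted p = 7.5e-07, 4 against 2 libraries), with every Hepa1-6 library above every E.G7 library. The fall in E.G7 was lost without E.G7 replicate 2.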

How the results depend on the processing

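In all, 20 alternatives were run for Hepa1-6 against LN and 18 for each other comparison, and 21, 18 and 21 of the 32 members kept direction and call in all of them for Hepa1-6 against LN, E.G7 against LN and Hepa1-6 against E.G7. Depth limits Scd1 and Fads2 in LN, and E.G7 rests on 2 libraries; where 1 of them was left out the other was taken to vary like the other groups. The filter of 10 CPM tested 31 members. Pan T cell scaling moved the share of calls that were higher from 54.3% to 70.2% in Hepa1-6 and from 54.6% to 70.5% in E.G7 against LN. It gave 2 members lower in Hepa1-6 and 1 in E.G7. Causes were not tested.

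For Hepa1-6 against LN the median of the sterol enzymes was 0.24 (upper quartile), 0.71 (pan T cell), 0.38 (no filter), 0.36 (10 CPM) and 0.37 (log2(FPKM + 1), filtered and not), and 0.37 to 0.44 with 1 library left out. That of the fatty acid genes was 0.28 (upper quartile), 0.75 (pan T cell) and 0.40 (10 CPM), and 0.40 to 0.48 with 1 library left out. For E.G7 against LN the sterol median was 0.49 (RLE and DESeq2), 0.33 (upper quartile), 0.75 (pan T cell), 0.30 (10 CPM) and 0.39 (log2(FPKM + 1), filtered and not), and 0.39 to 0.48 with 1 library left out, and the fatty acid median 1.18 (pan T cell) and 0.75 to 1.00 with 1 left out. For Hepa1-6 against E.G7 the sterol median was -0.29 (upper quartile, and no filter), -0.17 (10 CPM) and -0.30 (compared groups alone), and -0.31 to -0.17 with 1 library left out. The fatty acid median ran from -0.068 to 0.22 with 1 left out, turning to -0.068 without E.G7 replicate 2.

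Replicate numbers were shared between groups, and the deviations of libraries with the same number from their group means had correlations of -0.035 to 0.024. With 2 E.G7 libraries the correlations with E.G7 come in equal and opposite pairs. They cannot decide whether E.G7 libraries shared a preparation with those of the same number. Between LN and Hepa1-6 the correlations were -0.021 to 0.024 for the same number, within the range of -0.032 to 0.029 for different numbers. With a replicate block the sterol median of Hepa1-6 against E.G7 was -0.31, Scap turned to 0.051 there, Acaca in Hepa1-6, Fdft1 in E.G7 and Tm7sf2 between tumours lost their calls, and no other member changed its call.

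Some values changed sign. Against LN in Hepa1-6 they were Lss -0.010 with upper-quartile scaling, and with pan T cell scaling Mvk 0.21, Nsdhl 0.22, Sc5d 0.013, Srebf2 0.23, Scap 0.18 and Abcg1 0.15; with 1 library left out Mvk ran from -0.19 to 0.011. In E.G7 they were Dhcr7 -0.04, Srebf1 -0.066 and Srebf2 -0.014 (upper quartile), Sc5d 0.20, Scap 0.21 and Abcg1 0.17 (pan T cell), and Dhcr7 -0.011 and Srebf1 -0.042 (10 CPM). With pan T cell scaling Srebf2 in Hepa1-6 and Abcg1 in both tumours passed in the turned direction. Between tumours Hmgcs1 was -0.0051 (RLE and DESeq2), -0.053 (upper quartile, and no filter), -0.00053 (pan T cell) and -0.064 (compared groups alone). The 10 CPM filter gave Ebp 0.00084, Scap 0.017 and Abcg1 0.025. With 1 library left out, Hmgcs1 ran from -0.089 to 0.11, Scap from -0.074 to 0.067 and Abcg1 from -0.033 to 0.022 between tumours, and Acly was -0.068 without E.G7 replicate 2.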
